A study of Mus musculus with 5 samples.

Results

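The guanylate-binding proteins (GBPs) and the immunity-related GTPases (IRGs) are families of interferon-induced enzymes that defend cells against microbes living inside them. The 10 genes described here are 5 GBP genes (Gbp2, Gbp3, Gbp6, Gbp7 and Gbp9) and 5 IRG genes (Irgm1, Irgm2, Igtp, Iigp1 and Tgtp1). They were chosen by name with earlier results of these data known, and all 10 are among the 32793 gene rows of the series. They were measured by bulk RNA sequencing in mouse colon spheroids, which are three-dimensional cultures of colon epithelium. There were 2 libraries from mice with dimerization-deficient alleles of both Notch1 and Notch2 (NDD, titled RA by the submitters) and 3 from wild-type mice (WT), all of a mixed background that was mostly C57Bl6 with some FVB. Neither age, sex nor treatment is given in the labels, and nothing says whether libraries of 1 group came from separate animals or cultures, so p-values measure only the spread between these libraries, which may be technical.

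Interferon-gamma binds the receptor pair IFNGR1 and IFNGR2, activates the kinases JAK1 and JAK2, and leads to transcription from gamma-activated sites in DNA. The signal also induces the factor IRF1, which binds interferon-stimulated response elements, as does a complex that contains IRF9 and forms after type I or type III interferon. GBPs are large GTPases of the dynamin superfamily that assemble on bacteria in the cytosol and on the vacuoles of parasites. Among the IRGs, Iigp1 (Irga6) and Tgtp1 (Irgb6) encode effectors that load onto parasite vacuoles. Irgm1, Irgm2 and Igtp (Irgm3) encode regulators that sit on the cell's own membranes and keep the effectors inactive there.

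The members lie in a few gene clusters, and the stretches before their start sites are shown because these genes are known as interferon targets. In GENCODE's annotation of GRCm38, the build equivalent to mm10, Gbp7 (142530342 to 142550149), Gbp3 (142560026 to 142573209) and Gbp2 (142620602 to 142638008) follow each other on the plus strand of chromosome 3. Gbp9 (105077630 to 105139539) and Gbp6 (105270702 to 105293698) lie on the minus strand of chromosome 5. Igtp (58199556 to 58207591) and Irgm2 (58199618 to 58222782) lie on the plus strand of chromosome 11 and share 162 exon bases, while Irgm1 (48861968 to 48871683) and Tgtp1 (48985327 to 48994172) lie on the minus strand of the same chromosome. RefSeq promoter entries (GRCm38.p6) were used for 7 members, with the first of 2 entries for Gbp3, and the 120 bases directly before each RefSeq start are printed 5′ to 3′ on the gene's strand. For Gbp7 and Irgm2 no GENCODE transcript of the gene held an unbroken match to the first bases after the RefSeq start. The Gbp7 window ends at 142530335, only a few bases before the GENCODE start of 142530342. The windows of Irgm2, Irgm1 and Tgtp1 lie inside the span GENCODE gives for each gene. Capitals mark matches to TTCNNNGAA, the letters of a gamma-activated site, and to GAAA, any 2 bases and GAAA again (the spaced GAAA pair), the letters of an interferon-stimulated response element. Both strands were searched, and on the other strand the pair reads TTTC, any 2 bases, TTTC. Matches to the second motif overlap each other in Gbp3 and in Irgm1.
Gbp2 (chr3:142620543-142620662, plus strand): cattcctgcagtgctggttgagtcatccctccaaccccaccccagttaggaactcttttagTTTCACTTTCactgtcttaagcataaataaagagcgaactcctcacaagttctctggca
Gbp3 (chr3:142559924-142560043, plus strand): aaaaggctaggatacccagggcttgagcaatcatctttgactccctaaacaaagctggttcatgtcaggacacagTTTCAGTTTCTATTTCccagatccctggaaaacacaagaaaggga
Gbp7 (chr3:142530216-142530335, plus strand): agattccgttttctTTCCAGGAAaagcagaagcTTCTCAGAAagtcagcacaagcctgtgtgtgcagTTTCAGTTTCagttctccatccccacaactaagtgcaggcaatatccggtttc
Irgm2 (chr11:58214857-58214976, plus strand): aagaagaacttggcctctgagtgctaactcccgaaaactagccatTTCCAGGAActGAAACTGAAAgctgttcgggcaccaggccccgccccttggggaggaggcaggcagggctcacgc
Igtp (chr11:58199436-58199555, plus strand): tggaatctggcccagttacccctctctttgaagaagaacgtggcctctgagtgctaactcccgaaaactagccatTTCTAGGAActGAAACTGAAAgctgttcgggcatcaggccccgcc
Irgm1 (chr11:48871421-48871540, minus strand): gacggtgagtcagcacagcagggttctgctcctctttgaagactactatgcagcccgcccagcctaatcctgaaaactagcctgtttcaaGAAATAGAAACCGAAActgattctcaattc
Tgtp1 (chr11:48992247-48992366, minus strand): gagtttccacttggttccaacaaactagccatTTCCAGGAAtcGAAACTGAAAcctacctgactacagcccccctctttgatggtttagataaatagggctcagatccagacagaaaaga

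The spaced GAAA pair was found in all 7 windows and in 1.22% of the 32851 promoter entries over the same 120 bases. The other Gbp3 entry, not printed, held neither motif in its 120 bases. TTCNNNGAA was found in 4 windows (Gbp7, Irgm2, Igtp and Tgtp1) and in 3.15% of all entries. Both were present in these 4 windows and in 0.0609% of all entries. In Irgm2, Igtp and Tgtp1 both motifs stood in the same order with 2 bases between them. The Igtp and Irgm2 windows matched at 87 of 90 bases when 1 was moved by 30 bases against the other. A match is a description of letters and not a measured binding site. Parts of these windows are exon in GENCODE, namely 61 bases for Gbp2, 18 for Gbp3, 12 for Tgtp1 and all 120 for Irgm1.

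Libraries held 19192389 to 23064000 estimated counts, and NDD totals lay within the WT range. A count of 0 allows up to 3 counts, or 0.13 to 0.156 CPM (counts scaled to a library of 1000000), covering counting error only. The altered genes Notch1 (log2 fold change -0.17, SE 0.14, adjusted p 0.584 in edgeR) and Notch2 (-0.43, SE 0.26, adjusted p 0.505) were not called, and since their alleles change the protein, transcript levels do not check the labels. Epithelial markers were abundant, with Krt8 at 3183.17 to 3981 TPM (counts scaled for transcript length, summing to 1000000 in a library). Immune markers were at or near 0 for 9 of 12 genes (at most 3 counts in any library), and Cd3g, Cd8a, Cd4, Ncr1 and Klrb1c, which mark T cells and natural killer cells, had no count. The other 3, Cd68 (log2 fold change -0.74, SE 0.36), Csf1r (-2.86, SE 1.09) and Itgam (-0.59, SE 0.52), all had negative estimates. None of them was called by edgeR. The summed TPM of the immune list was 3.26 and 4.21 in NDD and 5 to 8.12 in WT. Of the 8 fibroblast markers, 7 had at most 10 counts, and the summed TPM of the list was 3.2 and 8.31 in NDD and 1.2 to 2.43 in WT, most of it from Pdgfrb. Of the 6 endothelial markers, 5 had at most 4 counts, and the sum, most of it from Vwf, was 0.85 and 2.96 in NDD and 0.65 to 1.13 in WT. Their part in the results below was not tested. In bulk libraries, fewer cells of a type and less RNA per cell cannot be told apart.

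Transcripts of the 10 members were present at low levels in both groups, and Irgm1 made up most of their summed TPM. The members summed to 29.3 and 29.9 TPM in NDD and to 21 to 24.7 TPM in WT. Irgm1 alone held 60.3% and 50.3% of that sum in NDD and 77.8% to 79.1% in WT. Without Irgm1 the sums were 11.6 and 14.9 TPM in NDD and 4.46 to 5.38 TPM in WT, so the groups did not overlap. The 5 GBP genes together held 6.8 and 5.28 TPM in NDD and 1.2 to 2.17 TPM in WT.

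The order of levels per transcript length differed between the groups below Irgm1. In WT, Irgm1 (17.5 TPM ± 1.55, SD, n = 3) was followed by Igtp (1.52 ± 0.146) and Irgm2 (1.3 ± 0.447), whose ranges overlapped. Gbp9 (0.467 ± 0.347), Gbp7 (0.427 ± 0.0306), Gbp2 (0.403 ± 0.29), Gbp3 (0.26 ± 0.0557), Gbp6 (0.23 ± 0.0361) and Tgtp1 (0.2 ± 0.185) came next. Each of these overlapped its neighbour in this order. Iigp1 was last at 0.0333 ± 0.0351 TPM and overlapped Tgtp1. In NDD the order was Irgm1 (16.4 ± 1.85, SD, n = 2), Irgm2 (3.86 ± 1.94), Igtp (3.26 ± 1.52), Gbp2 (3.02 ± 1.75), Gbp7 (1.52 ± 0.276), Gbp3 (1 ± 0.0778), Gbp6 (0.36 ± 0.382), Gbp9 (0.145 ± 0.0919), Tgtp1 (0.085 ± 0.0919) and Iigp1 (listed at 0). Irgm2, Igtp and Gbp2 overlapped each other there, as did Gbp6, Gbp9 and Tgtp1, and Irgm1 stood above every other member in all 5 libraries.

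**Figure D1:**
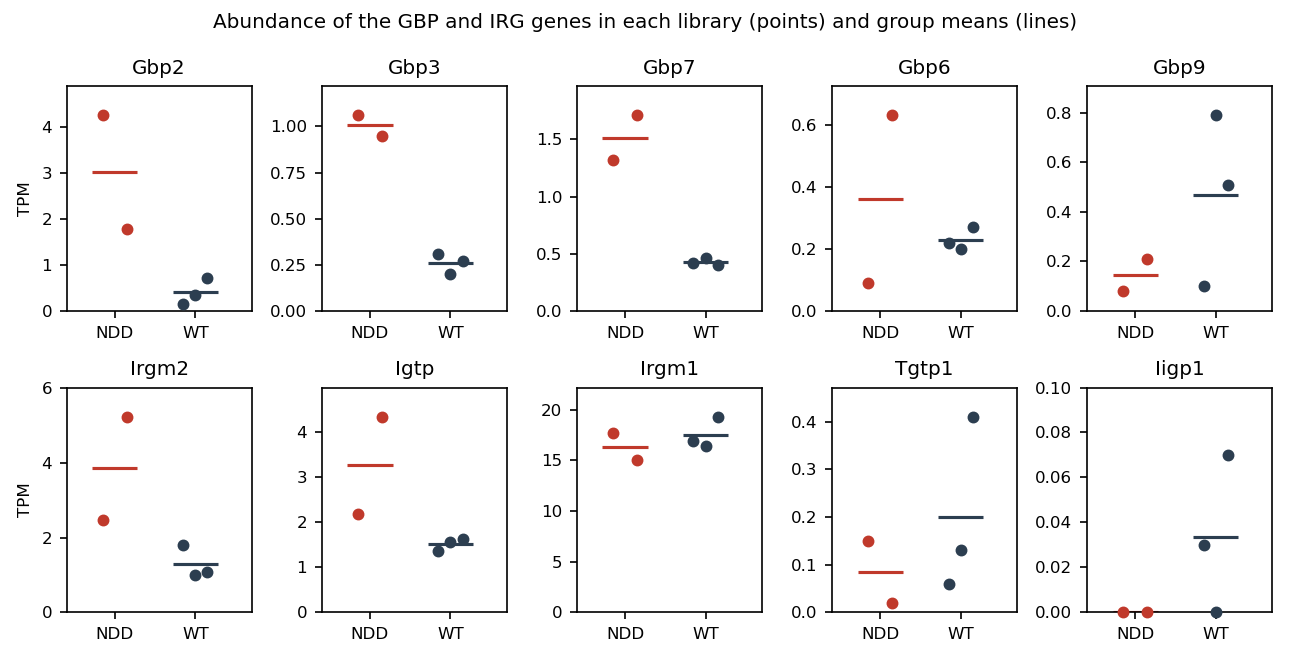
Abundance of each of the 10 genes in TPM (vertical axes, each starting at 0 with its own scale), with 1 point per library and a line at the mean of the 2 NDD or 3 WT libraries. Gbp2, Gbp3, Gbp7, Irgm2 and Igtp have both NDD points above all 3 WT points, while Irgm1 stays between 15.05 and 19.28 TPM in both groups.

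Against WT, 5 of the 10 members, namely Gbp2, Gbp3, Gbp7, Irgm2 and Igtp, had both NDD libraries above all 3 WT libraries, with estimated differences of 2.24-fold to 7.39-fold. Irgm1 differed little, Gbp6 and Gbp9 varied more in fold within a group than between the group means, and Tgtp1 and Iigp1 were under the minimum of the test. No member passed edgeR's quasi-likelihood test at an adjusted p under 0.05, where 0.0889% of the 13501 tested genes did. An unadjusted p under 0.05 with NDD higher was found for 5 of the 8 tested members and for 6.49% of all tested genes. Groups did not overlap in CPM, with NDD above WT, in the same 5 members and in 15.8% of all tested genes. No tested member was lower in NDD by either measure, against 4.68% and 16.2% of all tested genes. Shares and medians here are a description, because members were chosen with earlier results of these data known. The test required about 0.447 CPM in at least 2 libraries. Gbp3 met this only with its NDD libraries, and of the 7 members that WT libraries alone would have admitted, 4 had NDD above WT without overlap, each at an unadjusted p under 0.05. The median log2 fold change was 1.16 over these 7 and 1.40 over the 8 tested members, against 0.00 for all tested genes. Over the tested members, leaving out NDD replicate 2 gave 0.74, and leaving out NDD replicate 1 gave 1.77. DESeq2 called 3 members, all higher in NDD (Gbp2, Gbp7 and Irgm2), where it called 2.64% of tested genes in either direction and 1.62% as higher.

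For each of the chromosome 3 genes Gbp2, Gbp3 and Gbp7, both NDD libraries were above all 3 WT libraries, and none passed at an adjusted p under 0.05 in edgeR. Gbp2, which acts in the destruction of parasite vacuoles and bacteria, had 133 and 56 counts in NDD and 4, 11 and 23 in WT. That is 4.25 and 1.78 TPM in NDD and 0.15, 0.34 and 0.72 TPM in WT. NDD replicate 1 was the highest library and WT replicate 1 the lowest, and the groups did not overlap. The log2 fold change was 2.89 (SE 0.67, 95% interval 1.26 to 4.51, edgeR p 0.00466, adjusted p 0.293), with a DESeq2 adjusted p of 0.00729. It was 3.57 without WT replicate 3 and 2.19 without NDD replicate 1.

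Gbp7, a GBP tied to the assembly of the phagocyte NADPH oxidase on vacuoles, gave the lowest p of the members. It had 99 and 129 counts in NDD and 27, 36 and 31 in WT, or 1.32 and 1.71 TPM against 0.42, 0.46 and 0.40 TPM. The WT libraries were close to each other and both NDD libraries stood well above them. On the log2 scale the difference was 1.85 (SE 0.32, 95% interval 1.07 to 2.62, edgeR p 0.00102, adjusted p 0.169), and the DESeq2 adjusted p was 0.000626. The fold change ranged from 1.60 to 2.06 when each library was left out.

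Gbp3 lies between these genes. Its counts were 35 and 31 in NDD and 9, 7 and 8 in WT, or 1.06 and 0.95 TPM against 0.31, 0.20 and 0.27 TPM. Both groups were tight and did not overlap, at counts of at most 35 in any library. The log2 fold change was 1.99 (SE 0.43, 95% interval 0.94 to 3.05, edgeR p 0.00342, adjusted p 0.265) and ranged from 1.89 to 2.18 when each library was left out. DESeq2 gave an adjusted p of 0.0963. Together the 3 genes held 6.63 and 4.44 TPM in NDD and 0.88 to 1.39 TPM in WT.

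The chromosome 5 genes did not show this separation. Gbp6 had 5 and 36 counts in NDD and 11, 11 and 15 in WT, or 0.09 and 0.63 TPM against 0.22, 0.20 and 0.27 TPM. The NDD libraries lay on both sides of WT and differed from each other by 7.71-fold in CPM. The log2 fold change of 0.74 (SE 0.81, 95% interval -1.23 to 2.71, adjusted p 0.675 in edgeR) became -1.34 without NDD replicate 2. Of the 31-base sequences in Gbp6 transcripts, 74.2% also occur in another gene, with 67.8% in Gm43302, whose exons overlap 29% of Gbp6 exon bases on the same strand, and 51.4% in Gbp10, so its counts are uncertain.

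Gbp9 had 4 and 10 counts in NDD and 4, 39 and 25 in WT, or 0.08 and 0.21 TPM against 0.10, 0.79 and 0.51 TPM. WT replicate 1 sat with the NDD libraries, and the other WT libraries were higher. On the log2 scale the difference was -1.64 (SE 0.95, 95% interval -3.95 to 0.67, adjusted p 0.493 in edgeR). Leaving out NDD replicate 2 gave -2.47 and leaving out NDD replicate 1 gave -1.10, and the estimate was nearest to 0 without WT replicate 2. Without WT replicate 1 the estimate for Gbp9 was -2.10 (SE 0.66, unadjusted p 0.0258 and adjusted p 0.518 in edgeR). Its neighbour Gbp8 was at 0.47 and 1.52 TPM in NDD and 0.69, 1.55 and 2.66 TPM in WT, an estimate of -0.62 on the log2 scale (adjusted p 0.716, SE 0.79). Gbp4 had at most 13 counts and Gbp10 at most 3 in any library. Summing Gbp4, Gbp8 and Gbp9, which share first exon bases in GENCODE, gave -0.86 on the log2 scale (SE 0.76, adjusted p 0.61 in edgeR). Gbp6 and Gbp9 together held 0.17 and 0.84 TPM in NDD and 0.32 to 0.99 TPM in WT.

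**Figure D2:**
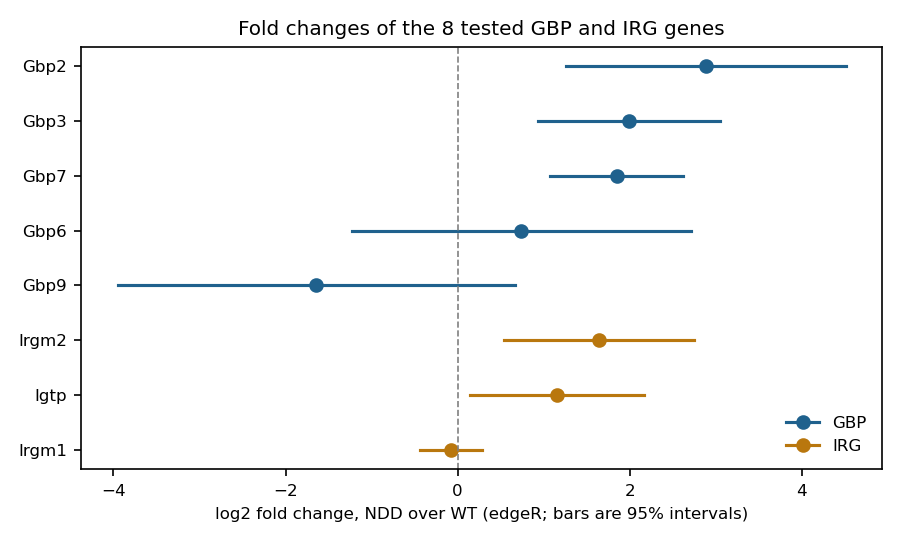
Log2 fold change of NDD over WT (horizontal axis) for the 8 tested members, from edgeR's fit, with 95% intervals as bars, GBP genes in blue and IRG genes in orange. Intervals of Gbp2, Gbp3, Gbp7, Irgm2 and Igtp lie above 0 before adjustment for multiple tests, those of Gbp6 and Gbp9 span 0 widely, and that of Irgm1 runs from -0.44 to 0.28.

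Among the IRG regulators, both NDD libraries were above all 3 WT libraries for the neighbours Irgm2 and Igtp, the groups overlapped for Irgm1, and none of the 3 passed at an adjusted p under 0.05 in edgeR. Irgm2 had 114 and 242 counts in NDD and 71, 47 and 49 in WT, or 2.48 and 5.23 TPM against 1.81, 0.99 and 1.09 TPM. NDD replicate 2 was 2.27-fold above NDD replicate 1 in CPM, and replicate 1 was still above every WT library. The log2 fold change was 1.64 (SE 0.45, 95% interval 0.54 to 2.75, edgeR p 0.0107, adjusted p 0.37), with a DESeq2 adjusted p of 0.0446. Leaving out NDD replicate 2 gave 0.95, and leaving out NDD replicate 1 gave 2.11.

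Igtp followed the same order of libraries in NDD, with 54 and 107 counts, and had 28, 41 and 39 counts in WT. In TPM these were 2.19 and 4.34 against 1.36, 1.57 and 1.64. WT libraries were close together, and NDD replicate 1 was nearer to them than to NDD replicate 2. On the log2 scale the difference was 1.16 (SE 0.42, 95% interval 0.15 to 2.17, edgeR p 0.0305, adjusted p 0.437), and 0.54 without NDD replicate 2. DESeq2 gave an adjusted p of 0.282. Of the 31-base sequences in Igtp transcripts, 15.9% occur in Irgm2, so reads may have been divided between them.

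Irgm1, loss of which disturbs Paneth cells and autophagy in the mouse gut, was the most abundant member. Over all 5 libraries together it was also the most even. It had 497 and 426 counts in NDD and 409, 478 and 554 in WT, or 17.66 and 15.05 TPM against 16.92, 16.37 and 19.28 TPM. The groups overlapped. The log2 fold change was -0.08 (adjusted p 0.812 in edgeR, SE 0.15), and its 95% interval of -0.44 to 0.28 leaves out the fold changes estimated for Irgm2 and Igtp. A test of the difference between these genes was not made.

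The IRG effectors among the members, Iigp1 and Tgtp1, were nearly silent, and this was not examined for every IRG effector. Iigp1, on chromosome 18, had 0 and 0 counts in NDD and 1, 0 and 1 in WT. Tgtp1 had 5 and 0 counts in NDD and 2, 2 and 8 in WT, and its near copy Tgtp2, in which 83.2% of its 31-base sequences occur, had at most 1 count. Both were under the minimum of the test, and the shared sequence makes the counts of Tgtp1 uncertain. The Tgtp1 window printed above holds both motifs, as do those of Irgm2 and Igtp.

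**Figure D3:**
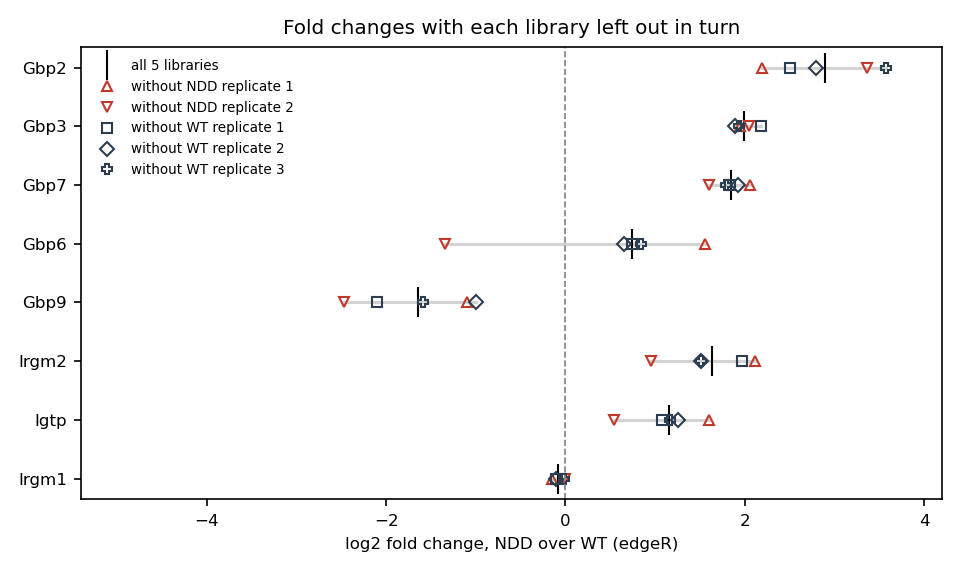
Log2 fold change of NDD over WT (horizontal axis, edgeR) for the 8 tested members with all 5 libraries (black bar) and with each library left out (symbols). Gbp3 stays between 1.89 and 2.18 and Gbp7 between 1.60 and 2.06, whereas Gbp6 changes sign without NDD replicate 2 and Igtp moves between 0.54 and 1.60.

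Gbp2, Gbp3, Gbp7, Irgm2 and Igtp did not share 1 order of the NDD libraries. In CPM, NDD replicate 2 was 2.27-fold and 2.12-fold above replicate 1 for Irgm2 and Igtp and 1.4-fold above for Gbp7. For Gbp3 the ratio was 0.949 and for Gbp2 it was 0.451. The fibroblast and pericyte marker Pdgfrb (3.15-fold), Irf9 (2.81-fold), Gvin1 (2.02-fold) and the surface colonocyte keratin Krt20 (2.17-fold) were also higher in NDD replicate 2. Krt20 was at 56.6 and 114.19 TPM in NDD and 32.51, 31.94 and 4.64 TPM in WT, so it separated the groups too. NDD was above WT without overlap of CPM in 4 of the 10 epithelial markers and in 15.8% of all tested genes. The markers did not share 1 order of the NDD libraries. In CPM, Cdh1, Krt8, Krt19 and Car1 were lower in NDD replicate 2 than in replicate 1, and the other epithelial markers were higher. Pdgfrb was at 2.98 and 8.17 TPM in NDD and 2.12, 1.51 and 1.09 TPM in WT. Its difference was 1.85 on the log2 scale (adjusted p 0.369 in edgeR, SE 0.51), and DESeq2 called it (adjusted p 0.0214). The relation of these genes to the GTPase values was not tested.

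Other genes of the GTPase families and of the interferon-gamma pathway were read from 7 lists, and none of their tested genes had an edgeR adjusted p under 0.05. Of all 13501 tested genes, 6686 had a positive log2 fold change, and an unadjusted p under 0.05 was found with NDD higher in 6.49% and with NDD lower in 4.68%. Of the 17 other family genes in the table, 6 were tested, 4 of them with a positive log2 fold change, and 1 with an unadjusted p under 0.05. That gene was Gvin1, a very large interferon-induced GTPase, at 28.45 and 53.79 TPM in NDD and 17.68, 9.68 and 6.81 TPM in WT. Its log2 fold change was 1.90 (SE 0.46, edgeR p 0.00582, adjusted p 0.298), and DESeq2 called it (adjusted p 0.00175). Its relatives Gm4070 (log2 fold change 0.70, SE 0.30) and Gm17757 (1.27, SE 0.58) overlapped between groups. Irgq, an IRG-like gene, was at 18.69 to 20.03 TPM in NDD and 17.16 to 17.79 TPM in WT (log2 fold change 0.16, SE 0.11, adjusted p 0.539). Gbp2b, next to Gbp2, had 2 counts in NDD replicate 1 and 0 in the other libraries.

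The ligand genes were at or near 0. Ifng, Ifnb1, Ifnl2 and Ifnl3 had 0 counts in all 5 libraries, and Ifne and Ifnk had at most 2. All 6 receptor genes were tested, none had an unadjusted p under 0.05, and the median log2 fold change was 0.11. Ifngr1 was at 124.09 and 139.72 TPM in NDD and 124.41 to 135.52 TPM in WT. Its partner Ifngr2 was at 169.25 and 186.54 TPM in NDD and 139.56 to 168.93 TPM in WT. Il10rb, a chain of the type III interferon receptor, was at 66.75 and 66.85 TPM in NDD and 56.87 to 62.15 TPM in WT. Ifnar2, a chain of the type I receptor, had the 1 negative estimate (-0.23, SE 0.22).

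Of the 13 signalling and transcription factors, 12 had a positive log2 fold change (median 0.25, against 0.00 over all tested genes) and 1 an unadjusted p under 0.05, near the 6.49% over all tested genes. This was Irf9, part of the factor that binds response elements, at 9.58 and 25.17 TPM in NDD and 8.84, 9.04 and 7.24 TPM in WT. NDD replicate 2 stood apart and NDD replicate 1 was just above WT. On the log2 scale the difference was 1.10 (SE 0.41, edgeR p 0.0369, adjusted p 0.437). Irf1 was at 51.43 and 60.55 TPM in NDD and 35.66 to 49.29 TPM in WT (log2 fold change 0.43, SE 0.19, adjusted p 0.46). Batf2, an interferon-induced factor that partners with IRF1, had an estimate of 0.81 (SE 0.34), Irf2 one of 0.22 (SE 0.17) and Jak1 one of -0.05 (SE 0.12), and the groups overlapped in CPM for all 3. Irf9 and Batf2 are themselves interferon-induced genes.

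Among the 9 tested negative regulators, 4 had a positive and 5 a negative log2 fold change, and Socs2 alone had an unadjusted p under 0.05. Socs2, a suppressor of cytokine signalling known mainly for growth hormone signalling, was at 14.77 and 8.61 TPM in NDD and 5.43, 4.3 and 2.36 TPM in WT. Its log2 fold change was 1.56 (SE 0.40, edgeR p 0.00718, adjusted p 0.323), and DESeq2 called it (adjusted p 0.0165). The phosphatases Ptpn1 (-0.34, SE 0.17), Ptpn2 (-0.05, SE 0.13) and Ptpn11 (-0.29, SE 0.18) were not called, nor was Cish (0.52, SE 0.28).

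Of the 15 tested targets of interferon-gamma outside these families, 14 had a positive log2 fold change, against 6686 of 13501 over all tested genes. The median was 0.43, and 2 had an unadjusted p under 0.05 with NDD higher, against 6.49% over all tested genes. Tap2, a subunit of the peptide transporter for MHC class I, was at 16.04 and 20.92 TPM in NDD and 9.88 to 12.94 TPM in WT (0.77, SE 0.22, adjusted p 0.385 in edgeR). Psmb9, an immunoproteasome subunit, was at 19.37 and 34 TPM in NDD and 12.32 to 17.4 TPM in WT (0.91, SE 0.34, adjusted p 0.437). B2m, the light chain of MHC class I, had a log2 fold change of 0.43 (SE 0.19). The proteasome activator genes Psme1 (0.01, SE 0.12) and Psme2 (0.00, SE 0.12) had the estimates nearest to 0.

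**Figure D4:**
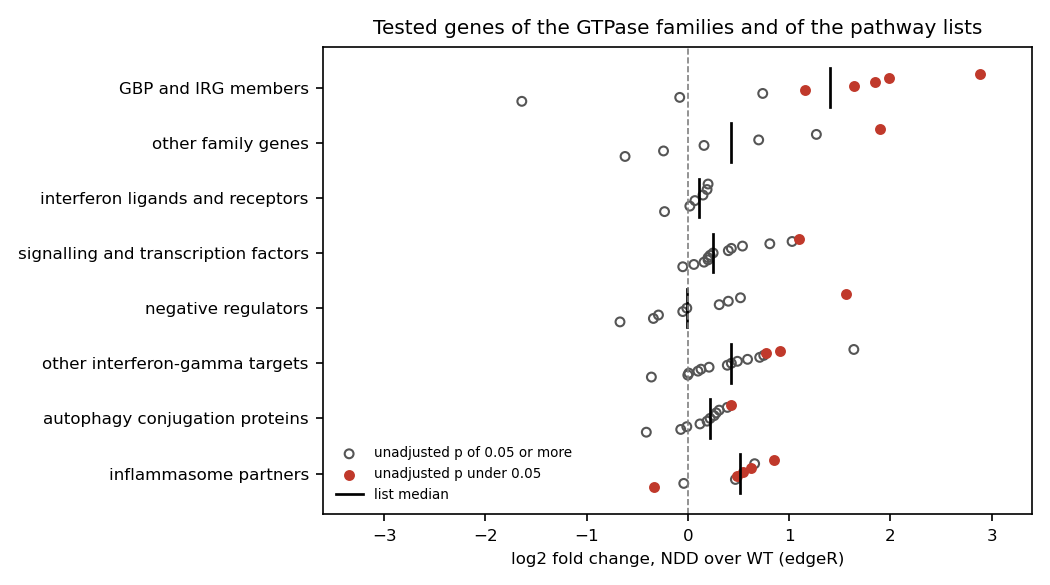
Log2 fold change of NDD over WT (horizontal axis, edgeR) for the 8 tested members and every tested gene of 7 further lists, with 1 point per gene, filled where the unadjusted p is under 0.05, and a bar at each list's median. The median is 1.40 for the members and lies between -0.01 and 0.52 for the other lists. Without Gbp3, which met the minimum of the test only with its NDD libraries, the members' median is 1.16.

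Proteins that the GTPases act with were compared last. The autophagy conjugation system, which directs GBPs and IRGs to the right membranes, had 11 tested genes with a median log2 fold change of 0.22 and 1 unadjusted p under 0.05, near the 6.49% over all tested genes. The gene was Atg12 (0.43, SE 0.16, adjusted p 0.437 in edgeR). Of the 11 genes, 8 had a positive and 3 a negative log2 fold change. NDD was above WT without overlap of CPM in 5 and below in 0, against 15.8% and 16.2% of all tested genes. Gabarap (0.31, SE 0.19), Sqstm1 (0.19, SE 0.16), Map1lc3a (0.39, SE 0.20), Map1lc3b (0.22, SE 0.12) and Atg7 (0.26, SE 0.14) were not called. Inflammasome genes, some of which act after GBPs expose bacterial products, had 4 of 8 tested genes higher and 1 lower at an unadjusted p under 0.05, against 6.49% and 4.68% over all tested genes. Aim2, a sensor of cytosolic DNA, was at 50.91 and 46.2 TPM in NDD and 28.47 to 30.46 TPM in WT (0.62, SE 0.12, adjusted p 0.215 in edgeR), and DESeq2 called it (adjusted p 0.00422). Casp1 (0.49, SE 0.19), Casp4 (0.85, SE 0.33), the mouse caspase-11 gene, and Il18 (0.55, SE 0.21) also had no overlap of CPM between groups. Casp4 was outside the rule for naming and was chosen after its values were seen, as was Nlrc4, the 1 lower gene (-0.33, SE 0.13). Gsdmd, whose product forms the pore of pyroptosis, overlapped (-0.04, SE 0.15).

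The genes closest to the median profile of the tested members were found from log2 CPM over the 5 libraries. Each profile was centred on its own mean, and profiles were compared by their root mean square difference. The median profile of the 8 tested members was 0.22 and 1.14 in NDD and -0.51, -0.43 and -0.29 in WT. Not every member followed it. In CPM, NDD replicate 2 was below replicate 1 for Gbp2, Gbp3 and Irgm1 and above it for the other tested members. Of 10513 candidates outside the lists, the closest 6 were Rgl3 (difference 0.108), Oplah (0.159), Zfp775 (0.164), Ifi27 (0.18), Lrrk2 (0.185) and Repin1 (0.185). Rgl3 was at 10.62 and 19.76 TPM in NDD and 5.8, 5.53 and 6.96 TPM in WT. Ifi27, an interferon-induced gene, was at 21.7 and 45.25 TPM in NDD and 13.88, 14.63 and 12.24 TPM in WT. Lrrk2 was at 8.8 and 21.14 TPM in NDD and 6.32 to 7.15 TPM in WT. All 6 were highest in NDD replicate 2 and had a lower CPM in every WT library than in either NDD library. The 6 were chosen for likeness to that profile, so this is a description and not a test. None was called by edgeR (adjusted p 0.276 to 0.437).

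**Figure D5:**
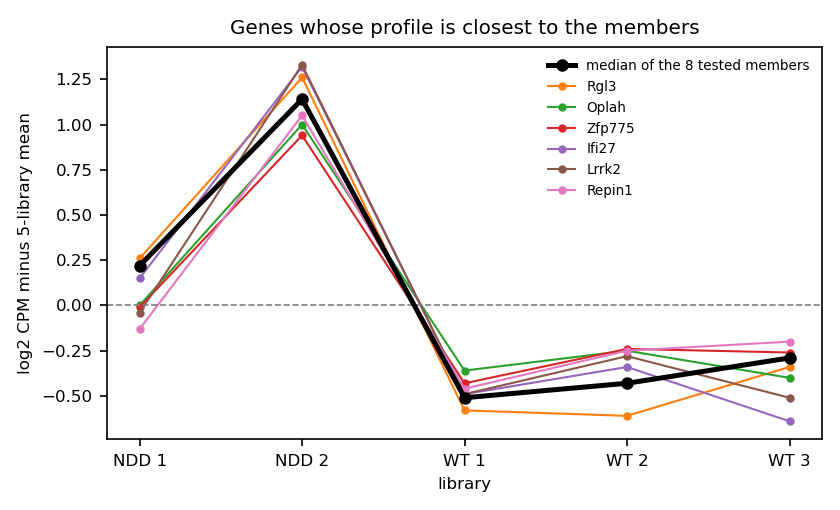
Log2 CPM minus its mean over the 5 libraries (vertical axis) in each library (horizontal axis) for the median of the 8 tested members (black) and the 6 closest genes (colours), where lines join the values of 1 gene and imply no order of libraries. Every profile is highest in NDD replicate 2, where the members' median is 1.14, and below 0 in all 3 WT libraries.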

How the data were processed

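Estimated counts per gene (whole numbers, no normalization) and TPM were deposited by the authors in 2 tables of the whole series. Bowtie2, RSEM and mm10 are named in the submitters' processing notes, without versions. The annotation and the handling of reads that match several genes are not given in the sources used here. Per the labels' protocols, the mRNA library kit keeps strand. Replicate numbers and groups came from the titles.

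Counts were tested with edgeR 4.0.16 in R 4.3.3 (quasi-likelihood, robust, TMM factors, filterByExpr with a minimum count of 10, 13501 genes, prior count 0.125), with Benjamini-Hochberg adjustment over all tested genes and a threshold of 0.05. Standard errors are the log2 fold change over the root of F. CPM are TMM-scaled, except in the filter and the limit for 0 counts. Alternatives used DESeq2 1.42.0 and limma 3.58.1, including limma on log2(TPM + 1) and log2(TPM + 0.1).

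The named genes are the members, Notch1, Notch2 and near copies, with the 3 lowest p-values, the 3 highest mean TPM and any call from each list, and the 6 closest profiles. A few further list genes are given beside them, and 1 gene of the lists is not reported here. Members and lists were chosen with earlier results of these data known. Shared sequence was counted as 31-base words of GENCODE transcripts. The code was tested on simulated counts of this design with 200 genes shifted by a log2 fold change of 2. With 13318 genes in the fit, edgeR found 73% of those shifted and made 11 false calls. DESeq2 fitted 13500 and found 80%, with 52 false calls.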

Additional observations from a re-analysis of the deposited data

How the results depend on the processing

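The number of members called was 0 in the report, also with limma-voom and the limma fits on TPM, 3 with DESeq2 (Gbp2, Gbp7 and Irgm2) and 0 to 2 across the fits that left out a library. Gbp7 and Irgm2 were the 2, without NDD replicate 1, a fit with a lone NDD library that is assumed to vary like WT and that called 1207 genes in all. Members higher at an unadjusted p under 0.05 numbered 5, 3 when 10 counts were required in every library (4 members left to test), and 3 to 6 with a library left out. The median log2 fold change over the members that each fit tested was 1.40 in the report. On log2(TPM + 1) it was 0.81, and on log2(TPM + 1) with no minimum it was 0.39. It was 0.94 with no filter on low counts and 0.74 to 1.77 with a library left out. Fits with no filter or minimum include Iigp1 and Tgtp1. Of 113 single fold changes under 18 alternatives, 1 changed sign, that of Gbp6 (-1.34 without NDD replicate 2, and up to 1.56 without NDD replicate 1). Calls from the pathway lists numbered 0, 3 with DESeq2 (Gvin1, Socs2 and Aim2) and 0 to 4 with a library left out.

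Over all genes, 12 were called. The count was 357 with DESeq2, 58 with no filter, 24 with limma-voom, 4 with at least 10 counts in every library, and 0 (without WT replicate 1, where 1211 genes had an unadjusted p under 0.05) to 1207 with a library left out, with 5 without WT replicate 2 and 3 without WT replicate 3. The cause was not tested, except that a minimum in every library removes genes absent from 1 group. The labels do not tie replicate numbers to a litter, batch or day, and same-numbered libraries deviated together at 0.013 and 0.301, so they were not paired. With the replicate block, 33 genes and 0 members were called, and the members' median was 1.27.

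Iigp1 and Tgtp1 had at most 8 counts in a library, and for Tgtp1 84.4% of its 31-base sequences occur in other genes, so its counts are uncertain. Depth leaves Gbp3, Gbp6 and Gbp9 at no more than 39 counts.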

Other observations

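Of the members and list genes other than cell type markers, 26 were under the minimum of the test. The groups overlapped in CPM in 23 of them, 6 of which had 0 counts in every library. NDD was above WT in 3 (Usp18, Gbp5 and Ido1). The share was 15.8% over the tested genes, an unlike group because its genes passed the minimum. These 3 were picked for that separation, so their values are a description. Usp18, a protease that removes ISG15 from proteins, had 7 and 16 counts in NDD and 0, 1 and 1 in WT, a depth-scaled ratio of 16.8 (95% exact interval 4.16 to 147, counting error only). Gbp5, on chromosome 3 beside Gbp7 and known for its part in inflammasome assembly, had 7 and 5 counts in NDD and 0, 2 and 1 in WT, a depth-scaled ratio of 5.86 (interval 1.58 to 32.3). Ido1, an enzyme that degrades tryptophan, had 5 and 6 counts in NDD and 2, 3 and 2 in WT, and the interval of its ratio of 2.3 included no difference (0.815 to 7).

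The tested genes flanking the clusters, 5 on each side, were read as a description. Around the chromosome 3 GBP genes their log2 fold changes ran from -0.72 (Tspan5, 3622.4 kb away) to 0.94 (Kyat3, 63 kb away). The farthest of these genes lay 4040.8 kb away. Their median was -0.24, and 0 of 10 were called by edgeR (2 at an unadjusted p under 0.05). Around Igtp and Irgm2 the log2 fold changes ran from -0.38 to 1.51, and 0 of 10 were called (1 at an unadjusted p under 0.05). Lypd8, 156.3 kb from Irgm2, which encodes a protein that keeps flagellated bacteria off the colon epithelium, had a log2 fold change of 1.08 (adjusted p 0.402 in edgeR, SE 0.33). Of the 11 around or between Irgm1 and Tgtp1, 1 was called, Gm12191, 684.5 kb away, which was higher in NDD (6.13, SE 0.21, adjusted p 0.00106 in edgeR). Around the chromosome 5 GBP genes 0 of 10 were called (2 at an unadjusted p under 0.05), with Spp1 at -4.70 (SE 1.38, adjusted p 0.394 in edgeR).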
